A study of Arabidopsis thaliana and Medicago truncatula and Solanum lycopersicum with 15 samples.

Results

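The root meristem of Arabidopsis is maintained by a small set of transcription factors, and 8 of their genes are described here by the open chromatin in and around them. They are PLT1 (AT3G20840), PLT2 (AT1G51190), PLT3 (AT5G10510, also called AIL6), BBM (AT5G17430), WOX5 (AT3G11260), SHR (AT4G37650), SCR (AT3G54220) and JKD (AT5G03150). They were taken by name, with no value of the lists in the rule, out of 27444 protein-coding genes on the numbered chromosomes. The gene table used here gives no strand, so each gene was read with a window from 2 kb before one end of its span to 2 kb after the other. This window is wider than one that runs 2 kb upstream and 1 kb downstream, and it holds that narrower window whichever way the gene is transcribed.

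PLT1, PLT2, PLT3 and BBM belong to the PLETHORA group of AP2-domain transcription factors, which are most abundant in the stem cell niche, fade with distance from it and are required to keep it. WOX5 is a homeodomain factor of the quiescent centre, the slowly dividing cells that hold neighbouring cells in a stem cell state. SHR is a GRAS-family factor made in the stele that moves outward by one cell layer, where it activates SCR, a second GRAS factor, and both act in the endodermis and the quiescent centre. JKD is a zinc finger protein of the BIRD group that binds SHR and SCR and limits how far SHR moves.

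Purified nuclei of Col-0 plants had been treated with Tn5, a transposase that inserts sequencing adapters where DNA is accessible (ATAC-seq), and the authors deposited 1 list of accessible regions per sample. INTACT root tip nuclei came from 1 cm tips of plants with UBQ10p:NTF and ACT2:BirA, in which a nuclear envelope tag is made constitutively and biotinylated, and the nuclei are caught on streptavidin beads. Sucrose root tip nuclei came from tips of the same length by sedimentation, with no affinity step. Hair cell nuclei (ADF8p:NTF, ACT2p:BirA) and non-hair cell nuclei (GL2p:NTF, ACT2p:BirA) were caught by INTACT from the differentiated root zone, and together they are called the mature epidermis here. Each of the 4 groups has 2 biological replicates per the series' description, so 4 root tip lists stood against 4 epidermal lists. The root tip lists hold a mixture of all cells of the tip, of which the stem cell niche is a small share. Fewer cells with an open site and a less open site in each cell cannot be told apart in such nuclei.

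A list places each region by its coordinates and carries no read counts or scores, so the depth behind it is unknown. The root tip lists held 11819 to 23812 regions and the epidermal lists 31212 to 52373. The average protein-coding gene window held 0.749 to 1.52 regions in root tip lists and 2.06 to 3.57 in epidermal lists. Covered length, the number of base pairs of a window inside regions, was therefore also scaled to the same mean over all protein-coding windows in each list. After scaling, the median difference between root tip and epidermis over all 23001 genes tested was -0.30 on the log2(scaled covered bp + 100) scale. It was -1.31 without scaling and 0 after quantile normalization, so each member's difference is also given relative to this median.

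Fewer of the 8 windows held a region in INTACT replicate 2 and both sucrose lists than in any epidermal list. INTACT replicate 1 held one for 7, as did hair replicate 2 and both non-hair lists. Over all genes the share was lower in every root tip list than in every epidermal list. A region was listed for 7 and 5 of the 8 genes in the INTACT root tip lists, for 3 and 4 in the sucrose root tip lists, for 8 and 7 in the hair cell lists and for 7 in both non-hair cell lists. Over all protein-coding windows a region was listed for 71.7% and 68.6% in INTACT lists, 49.5% and 59.7% in sucrose lists, 91.9% and 86.0% in hair cell lists and 91.3% and 82.6% in non-hair cell lists. The windows held 14 and 11 regions in the INTACT lists and 5 in each sucrose list, against 25 and 15 in hair cell lists and 33 and 12 in non-hair cell lists. The covered length per member window averaged 461.9 and 337.6 bp in INTACT lists, 141.5 and 133.8 bp in sucrose lists, 724.4 and 437.4 bp in hair cell lists and 1027.5 and 306.0 bp in non-hair cell lists. In all 8 lists this was below the mean over all protein-coding windows, which ran from 199.5 to 516.6 bp in root tip lists and from 631.1 to 1187.7 bp in epidermal lists.

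**Figure D1:**
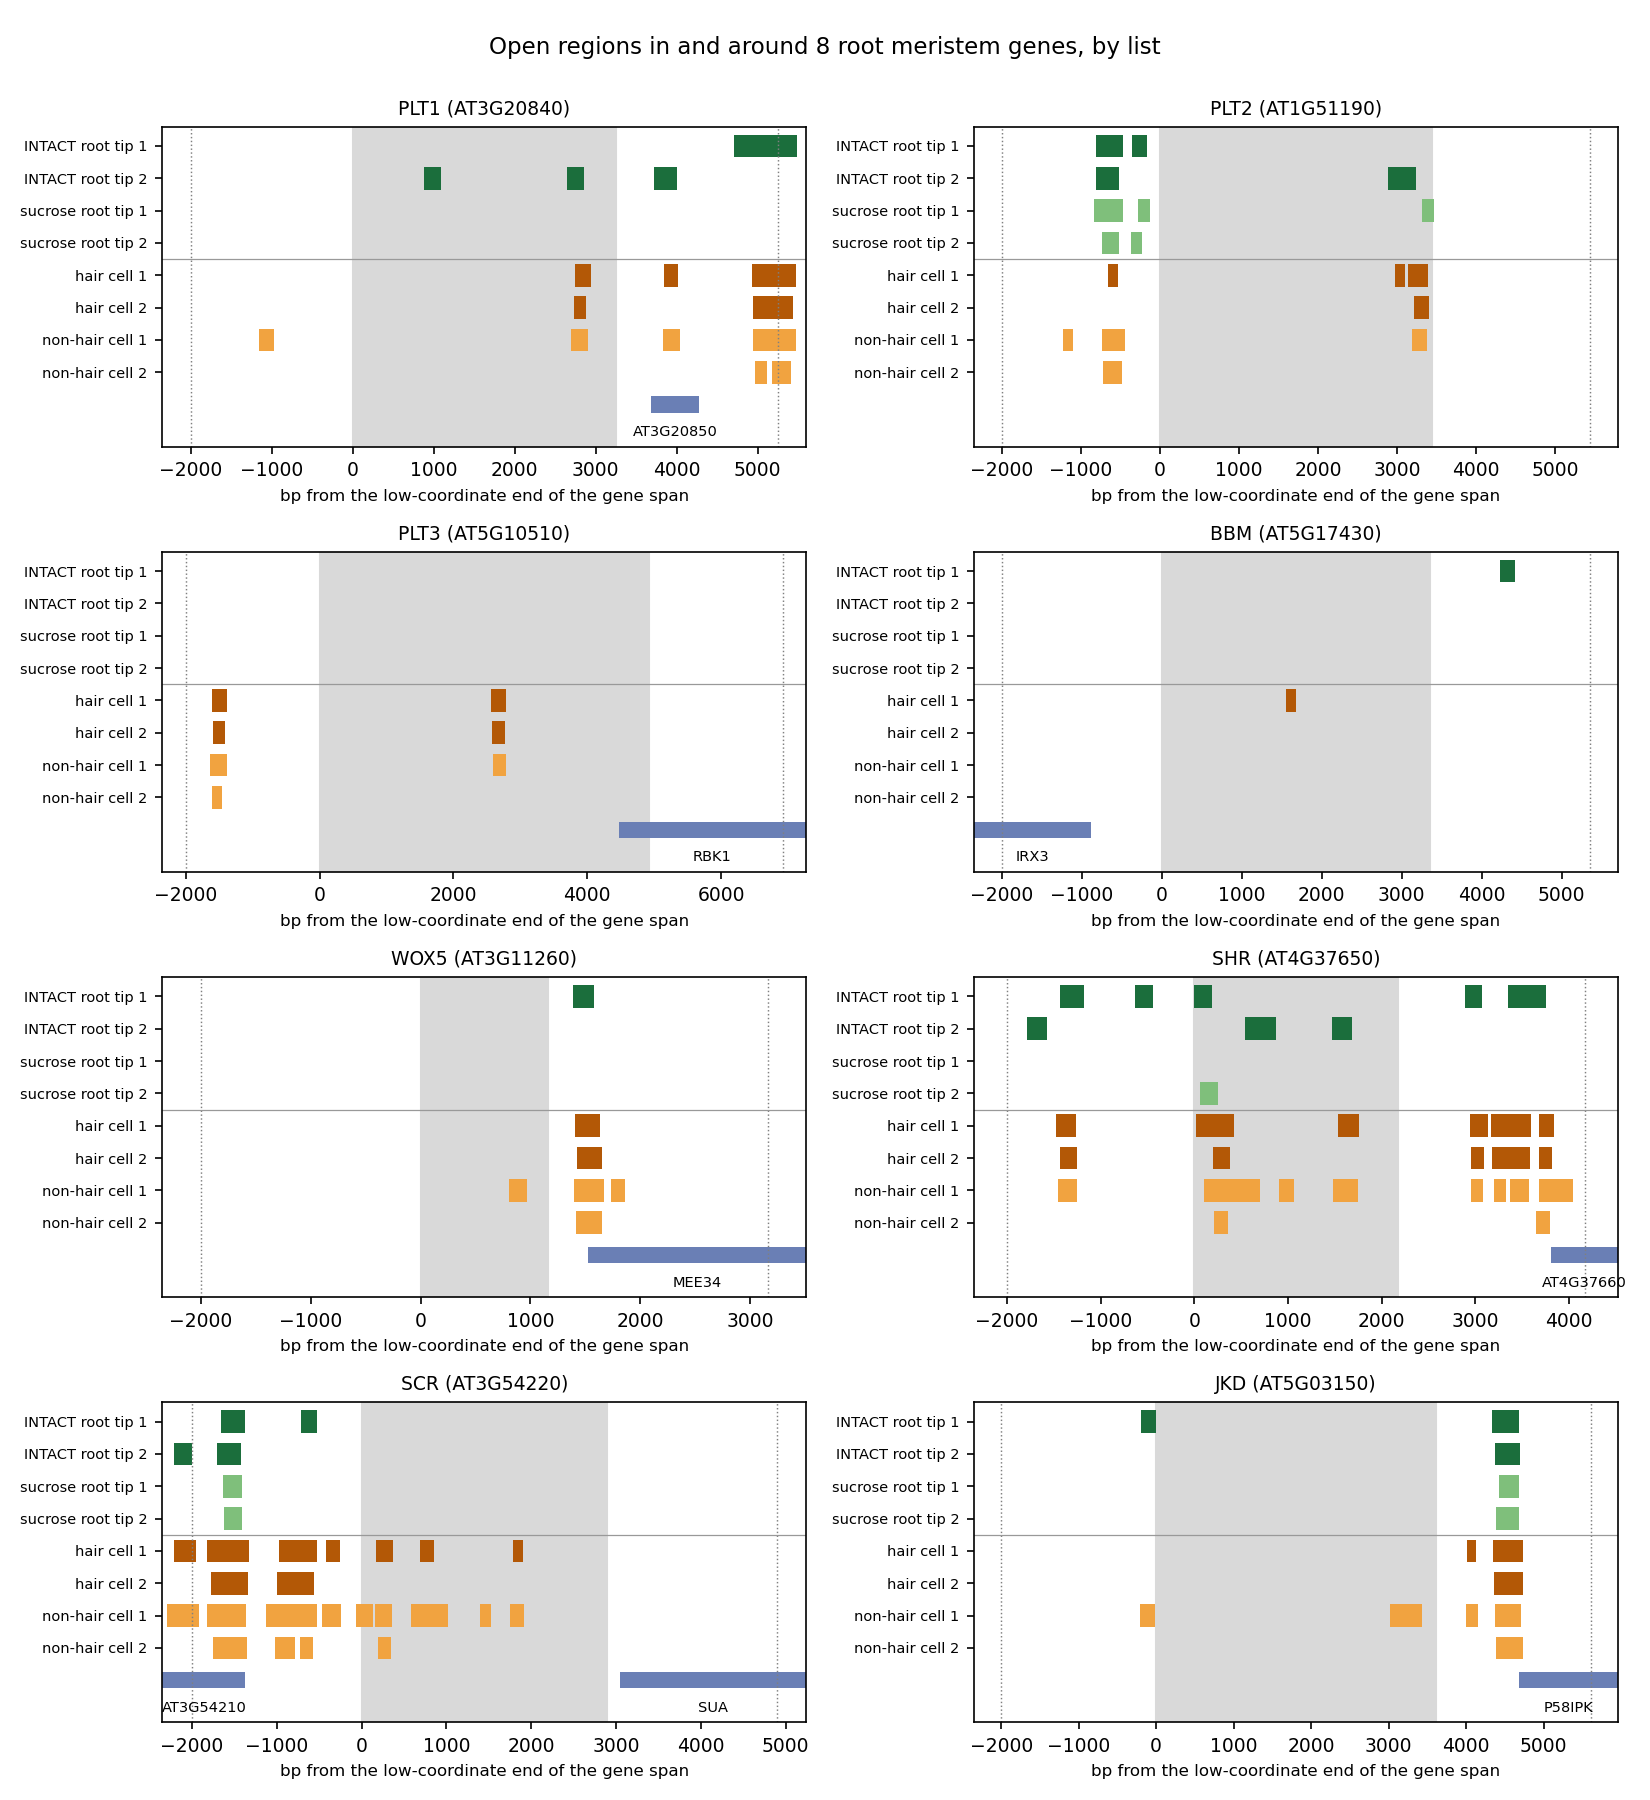
Regions of the 8 lists around each gene, with the distance in bp from the low-coordinate end of the gene span on the x axis and 1 row per list, the 4 root tip rows above the 4 epidermal rows. Grey marks the gene span, dotted lines the window ends 2 kb away, and blue bars neighbouring protein-coding genes. PLT3 has no bar in any root tip row, and the rows of PLT2 show a pair of sites before the low-coordinate end in 3 of the 4 root tip lists.

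With limma and Benjamini-Hochberg adjustment over all genes tested, 1 member (PLT2) rose in root tips and 2 (PLT3 and SCR) fell, out of 7 tested. Over all genes tested, 9.96% were called higher and 19.6% lower in root tips, 29.6% in either direction, and the members' 1 and 2 of 7 are close to these shares. The median difference of the 7 members was -0.65, beside -0.30 over all genes. PLT3 passed the minimum for testing through its epidermal lists alone, and the root tip mean of WOX5, 60 scaled bp, was also under that minimum. These counts are therefore a description. BBM fell under the minimum of 100 bp mean scaled covered length and was not tested.

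PLT1 was covered by 539 and 707 bp in INTACT root tips and by 0 bp in both sucrose root tip lists, against 682 and 444 bp in hair cells and 929 and 219 bp in non-hair cells. After scaling these were 673, 905, 0 and 0 bp in root tips against 389, 394, 504 and 224 bp in the epidermis. Both INTACT lists lay above every epidermal list and both sucrose lists below, so the root tip lists enclosed the epidermal ones. The difference between root tip and epidermis was -0.65 ± 0.32 (SE; limma adjusted p = 0.166), or -0.35 relative to the median of all genes. On INTACT root tip lists alone it was 0.95 with the opposite sign (limma adjusted p = 0.173). With 10 bp added in place of 100 it was called lower (limma adjusted p = 0.0283). Without scaling, where 66.4% of all genes were called lower, it was called too (limma adjusted p = 0.0439), at 0.12 relative to the median. The widest site around PLT1, chr3:7305155-7305935, lay 1461 bp beyond the high-coordinate end and closer to NEK5, at 244 bp. It was listed in all 4 epidermal lists (379 to 534 bp) and in 1 root tip list, INTACT replicate 1, where it measured 781 bp, reached past the window end and was the only region of the window.

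PLT2 is the member with more open chromatin in root tips. Its window was covered by 533, 631, 664 and 362 bp in the root tip lists (INTACT replicates 1 and 2, then sucrose replicates 1 and 2), against 519 and 187 bp in hair cells and 621 and 247 bp in non-hair cells. These unscaled values overlapped between root tip and epidermis, although the root tip lists are shorter overall. After scaling they were 665, 808, 2147 and 888 bp in root tips against 296, 166, 337 and 252 bp in the epidermis, and every root tip list lay above every epidermal list. Over all genes tested, 11.9% had all root tip lists above all epidermal lists and 17.7% had all below.

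The difference for PLT2 was 1.64 ± 0.33 (SE; 95% interval 0.84 to 2.44; limma adjusted p = 0.0143), or 1.94 relative to the median of all genes. Relative to that median it was 1.78 without scaling and 1.80 after quantile normalization. The call was lost without scaling (0.47, limma adjusted p = 0.324), with INTACT root tip lists alone (1.27, limma adjusted p = 0.0815) and when any one of the 4 epidermal lists was left out (limma adjusted p = 0.0534 without hair replicate 1, 0.0667 without hair replicate 2, 0.0607 without non-hair replicate 1 and 0.0552 without non-hair replicate 2). PLT2 had no neighbouring gene in its window, and all 4 of its sites were closest to PLT2 itself.

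The regions of PLT2 in root tips fell mostly at a pair of sites before the low-coordinate end of the gene. The outer site, chr1:18976340-18976736, lay 439 bp from that end and was listed in all 4 root tip lists, with 342, 284, 364 and 222 bp. It was also listed in hair replicate 1 (127 bp) and in both non-hair lists (293 and 247 bp) and was missing from hair replicate 2. The inner site, chr1:18976811-18977045, lay 130 bp from the gene end and was listed in 3 root tip lists, with 191 bp in INTACT replicate 1 and 150 and 140 bp in the sucrose replicates, and in no epidermal list. Each of those 3 widths is the commonest width of its own list, and a list's commonest width was shared by 21.5% to 34.5% of regions in root tip lists. A further joined site, chr1:18980062-18980639, crossed the high-coordinate end and was listed in 2 root tip lists and 3 epidermal lists. Only the sucrose replicate 1 region, chr1:18980490-18980639, itself crossed that end, and the other regions lay inside the gene. The INTACT replicate 2 region, chr1:18980062-18980408, did not overlap the sucrose region and was joined to it through an epidermal region.

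PLT3 had no region in any of the 4 root tip lists. In hair cells its window was covered by 444 and 369 bp, and in non-hair cells by 458 and 152 bp. The lists did not overlap, and PLT3 fell in root tips (limma adjusted p = 0.00271). No fold is given because every root tip list is at 0. With a mean of 246 scaled bp in the epidermis, PLT3 passed the minimum of 100 bp through the epidermal lists alone, so it had to be higher there to be tested at all. The count of regions was 0 in each root tip list against 2, 2, 2 and 1 in the epidermal lists. An exact two-sided permutation test over the 70 assignments of the lists gave p = 0.0286, the smallest it can give, and an adjusted p of 0.104. Over all 27444 windows 27.5% reached an exact p under 0.05 in this test, and 0 passed after adjustment.

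The PLT3 regions lay at 2 sites. The first, chr5:3313757-3314018, was 1382 bp beyond the low-coordinate end and measured 221 and 177 bp in hair cells and 262 and 152 bp in non-hair cells. It is the 1 member site listed in all 4 epidermal lists and no root tip list, a pattern of 9.82% of all 61830 sites. The second, chr5:3317969-3318191, lay inside the gene in 3 epidermal lists. Since the first site is more than 1 kb from the gene, it lies in the window of 2 kb upstream and 1 kb downstream only if the low-coordinate end is the upstream one. With 1 kb at that end PLT3 fell under the minimum and was not tested, and after quantile normalization its difference missed the threshold (-0.43, limma adjusted p = 0.323). It also fell under the minimum when hair replicate 1, hair replicate 2 or non-hair replicate 1 was left out.

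BBM was nearly without regions in every nucleus type. It had 1 region of 191 bp in INTACT root tip replicate 1 and 0 in the other 3 root tip lists, against 1 region of 127 bp in hair replicate 1 and 0 in the other 3 epidermal lists. Both were at the commonest width of their list. The root tip region (chr5:5746625-5746815) lay 876 bp beyond the high-coordinate end, and the hair cell region (chr5:5743945-5744071) lay inside the gene. On average 0.649% of the window was covered in root tips and 0.432% in the epidermis.

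WOX5, the quiescent centre factor, had 1 region of 191 bp in INTACT root tip replicate 1 and none in the other 3 root tip lists. It was covered by 231 and 224 bp in hair cells and by 566 and 235 bp in non-hair cells. Scaled, the root tip lists stood at 238, 0, 0 and 0 bp and the epidermal lists at 132, 199, 307 and 240 bp, so 3 root tip lists lay below every epidermal list and 1 lay among them. The difference was -1.21 ± 0.41 (SE), with a limma adjusted p of 0.0673, or -0.91 relative to the median of all genes. Its mean was 60 scaled bp in root tips, under the minimum of 100 bp, against 219 in the epidermis. WOX5 thus reached the minimum through its epidermal lists. When INTACT replicate 1 was left out, no root tip list held a region, and the limma adjusted p was 0.00286. WOX5 then passed the minimum through its epidermal lists alone, so it had to be higher there to be tested, and 27.5% of all genes were called lower. WOX5 was also called lower without INTACT replicate 2 (limma adjusted p = 0.043), where 24.6% of all genes were called lower. In that fit INTACT replicate 1 was the only root tip list with a region, so the epidermal lists again carried WOX5 over the minimum. After quantile normalization its difference turned to 0.08 (limma adjusted p = 0.894). Without scaling, where 66.4% of all genes were called lower, it was called (limma adjusted p = 0.0191) at -0.28 relative to the median. The site behind the 191 bp and behind all 4 epidermal lists, chr3:3528665-3528949, overlaps the neighbouring gene MEE34, 224 bp beyond the high-coordinate end of WOX5. A site inside WOX5 was listed once, in non-hair replicate 1 (164 bp).

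**Figure D2:**
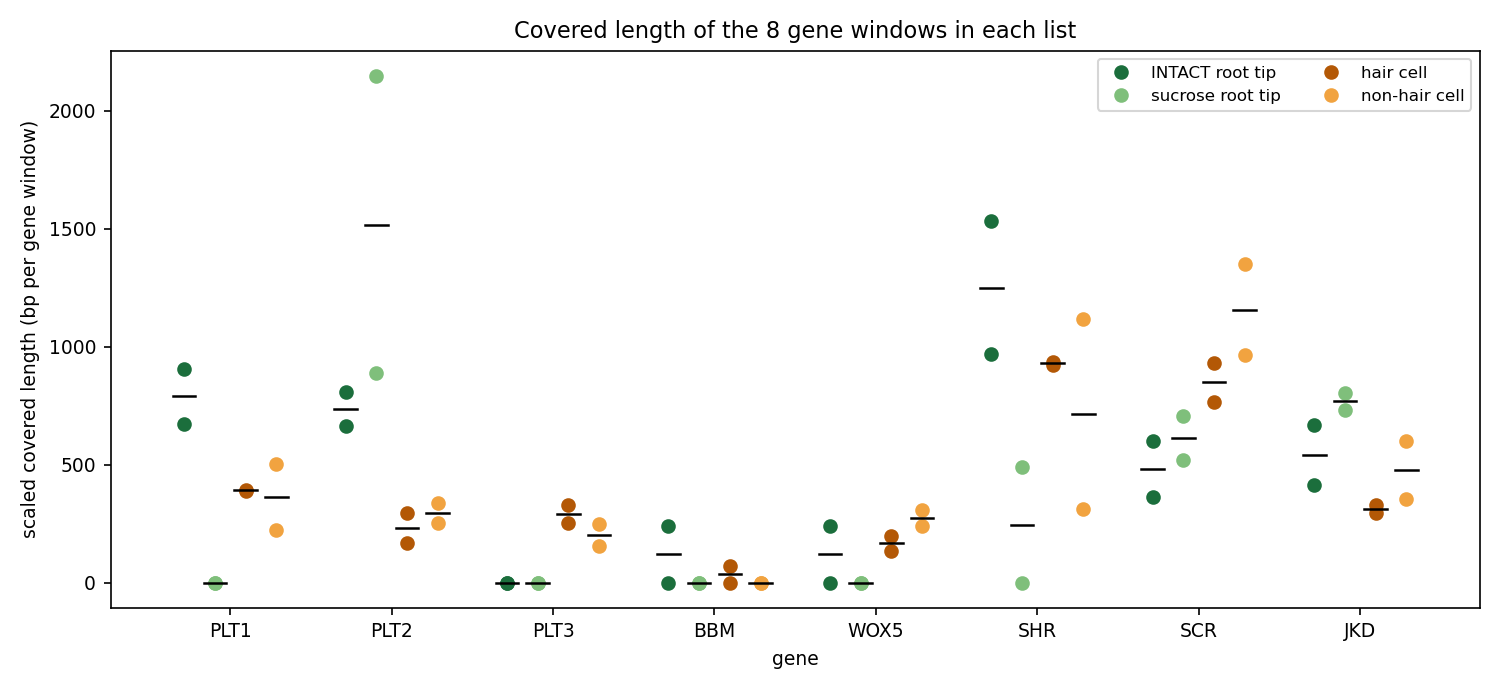
Scaled covered length of each gene window in bp (y axis) by gene (x axis), with 1 point per list and a line at the mean of the 2 lists of a group, root tip groups left of epidermal groups. PLT2 root tip points lie between 665 and 2147 bp, above its epidermal points of 166 to 337 bp. SCR root tip points lie between 364 and 708 bp, below its epidermal points of 766 to 1349 bp.

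SHR, whose protein moves between cell layers, differed widely among the root tip lists. Its window was covered by 1227 and 756 bp in INTACT root tips and by 0 and 199 bp in sucrose root tips, against 1641 and 1039 bp in hair cells and 2059 and 304 bp in non-hair cells. Scaled, these were 1532, 968, 0 and 488 bp in root tips against 936, 922, 1118 and 311 bp in the epidermis. The groups overlapped. The difference was -0.59 ± 0.62 (SE; limma adjusted p = 0.488), or -0.29 relative to the median, and its sign turned with INTACT root tip lists alone (0.64, limma adjusted p = 0.407).

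The sites of SHR were many, and several appeared in both root tip and epidermal lists. Of 8 sites, 7 appeared in a root tip list and 6 in an epidermal list. Apart from the gene-body site, each of the 7 was in a single root tip list. The site at the low-coordinate end of the gene body, chr4:17691689-17692562, was listed in 3 root tip lists (191, 334 and 199 bp) and all 4 epidermal lists (414, 181, 594 and 152 bp). It was missing from sucrose replicate 1. The INTACT regions at this site, chr4:17691689-17691879 in replicate 1 and chr4:17692229-17692562 in replicate 2, did not overlap and were joined through epidermal regions. The INTACT replicates thus had no overlapping regions anywhere in the SHR window. A broad site beyond the high-coordinate end, chr4:17694850-17695733, overlaps the neighbour AT4G37660 and was listed in all 4 epidermal lists (152 to 697 bp) and in INTACT replicate 1 (401 bp). Of the 8 sites, 3 were each found in 1 list alone, among them chr4:17691060-17691250 in INTACT replicate 1, 436 bp before the low-coordinate end.

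SCR, the target and partner of SHR, fell in root tips relative to the epidermis. Its window was covered by 479 and 284 bp in INTACT root tips and by 219 and 211 bp in sucrose root tips, against 1635 and 864 bp in hair cells and 2484 and 943 bp in non-hair cells. Every root tip list lay below every epidermal list, both before scaling and after it, at 598, 364, 708 and 518 bp in root tips against 932, 766, 1349 and 964 bp in the epidermis. The difference was -0.77 ± 0.24 (SE; 95% interval -1.34 to -0.21; limma adjusted p = 0.0488), which is -0.48 relative to the median of all genes. The call lies close to the threshold: it was lost after quantile normalization (limma adjusted p = 0.0678), without the minimum (0.054), with INTACT root tip lists alone (0.105) and on leaving out any list except INTACT replicate 1 (limma adjusted p = 0.0665 to 0.171). It was also lost with the flank at the low-coordinate end alone (-0.49, limma adjusted p = 0.067). With sites nearest to SCR alone, where no root tip list held a region, it was lost too (-1.68, limma adjusted p = 0.0742). The call held, with a larger difference, when every list was cut to its 11702 widest regions (-1.73, limma adjusted p = 0.0117). It also held at -2.37 with 1 kb at the low-coordinate end (limma adjusted p = 0.0129) and with 1 kb on both sides (limma adjusted p = 0.0131). Those windows cover the same SCR sites, since none lies beyond the high-coordinate end. INTACT replicate 1 (191 bp) was the only root tip list with a region there, so the size of -2.37 depends on the added 100 bp.

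SCR had fewer sites in the root tip lists. All 9 of its sites appeared in an epidermal list and 3 in a root tip list, and the mean number of regions was 1.5 in root tips against 5.5 in the epidermis (exact permutation p = 0.0857, adjusted p = 0.2). The site chr3:20068165-20068655, 1331 bp beyond the low-coordinate end and overlapping the neighbour AT3G54210, was listed in all 8 lists, with 288, 281, 219 and 211 bp in root tips against 491, 431, 460 and 403 bp in the epidermis. Its width was smaller in all 4 root tip lists, unscaled. Next to it, chr3:20068861-20069463, 523 bp from SCR, measured 443 and 433 bp in hair cells and 599 and 388 bp in non-hair cells (base pairs inside regions), and 191 bp in INTACT replicate 1 alone among the root tip lists. The 6 sites closest to SCR itself, inside it or within 246 bp of its low-coordinate end, were listed in epidermal lists alone.

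JKD, the partner that retains SHR, was covered by 535 and 323 bp in INTACT root tips and by 249 and 298 bp in sucrose root tips, against 516 and 372 bp in hair cells and 1103 and 348 bp in non-hair cells. Scaled, these were 668, 414, 805 and 731 bp in root tips against 294, 330, 599 and 356 bp in the epidermis. Of the root tip lists 3 lay above every epidermal list and 1, INTACT replicate 2, lay among them. The difference was 0.61 ± 0.27 (SE; limma adjusted p = 0.127), or 0.91 relative to the median of all genes, and without scaling it turned to -0.52 (limma adjusted p = 0.27), which is 0.79 relative to the median there.

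The site of JKD that every list held lies at chr5:749760-750153, 731 bp beyond the high-coordinate end and across one end of the neighbour P58IPK, and was the only region of the window in INTACT replicate 2, both sucrose lists, hair replicate 2 and non-hair replicate 2. It measured 344, 323, 249 and 298 bp in root tips against 389, 372, 336 and 348 bp in the epidermis. A site ending 5 bp before the low-coordinate end of JKD, chr5:745214-745415, was listed in INTACT replicate 1 (191 bp) and non-hair replicate 1 (195 bp).

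The regions of the 8 windows joined into 37 sites, of which 21 appeared in a root tip list and 32 in an epidermal list. The sites in all 8 lists were the SCR and JKD sites described above, 5.41% of member sites beside 13.6% of all 61830 sites. A further 5 sites (13.5%, beside 9.39% of all sites) were in root tip lists alone, and 16 (43.2%, beside 48.2%) in epidermal lists alone. None was in all 4 root tip lists and no epidermal list, a class with 0.0275% of all sites. A single list held 13 of the 37 sites (35.1%, beside 26.9%).

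The widely shared sites lay mostly by the neighbours. The windows reach AT3G20850 at PLT1, RBK1 (which overlaps the PLT3 span), IRX3 and the lncRNA gene AT5G02715 at BBM, MEE34 at WOX5, AT4G37660 and the RNA genes AT4G09525 and AT4G09535 at SHR, AT3G54210 and SUA at SCR, and P58IPK at JKD. Of the 37 sites, 27 were closest to the member and 10 to another protein-coding gene. Of the 10 sites closest to a neighbour, 6 were in 5 or more lists and 2 in all 8. Of the 27 closest to the member, 3 were in 5 or more lists (the outer PLT2 site, the site across the PLT2 high-coordinate end and the SHR gene-body site) and 0 in all 8. At the site across the PLT2 end and the SHR gene-body site, the root tip regions did not all overlap and were joined through epidermal regions. The 5 sites in root tip lists alone were all closest to their member, at PLT1, PLT2, BBM and SHR (2), and the inner PLT2 site was the 1 of them in more than 1 list.

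The member regions had a smaller median width than the whole lists, both in root tips and in the epidermis. Of 35 regions in root tip lists, 16 (45.7%) had the commonest width of their list, beside 26.6% over the whole root tip lists, and their median width was 211 bp beside 278 bp. Of 85 regions in epidermal lists, 19 (22.4%) had the commonest width, beside 18.4%, and their median width was 200 bp beside 265 bp. Of the 14 member regions in INTACT replicate 1, 8 had its commonest width of 191 bp, among them the root tip regions of BBM and WOX5. With the same number of the widest regions kept from each list (11702), 10 member sites were left.

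As a share of window length, unscaled, SCR was covered to 4.33% ± 1.81 in root tips and 21.5% ± 10.9 in the epidermis, and SHR to 8.84% ± 9.0 and 20.4% ± 12.4 in the same order (SD, n = 4 lists each). In the epidermis the order was then PLT1 (7.84% ± 4.22), JKD (7.69% ± 4.64), WOX5 (6.08% ± 3.26), PLT2 (5.29% ± 2.81), PLT3 (3.99% ± 1.58) and BBM (0.432% ± 0.863). In root tips the order after SHR was PLT2 (7.36% ± 1.82), JKD (4.62% ± 1.66), SCR (4.33% ± 1.81), PLT1 (4.30% ± 5.05), WOX5 (0.925% ± 1.85), BBM (0.649% ± 1.30) and PLT3 (0%). In the epidermis neighbours in this order lay within the larger of their SDs, except SHR with PLT1 and PLT3 with BBM. In root tips they did so too, except PLT2 with JKD.

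Between hair and non-hair cells no member was called, and 0 of the 23001 genes tested (0.0%) passed with limma after adjustment. At an unadjusted limma p under 0.05 there were 0 of the 7 members and 137 genes (0.596%). This share is below the 0.05 that would be expected to pass with no differences at all. The 0 calls therefore do not show that the cell types are alike. The differences of hair minus non-hair ran from -0.50 for WOX5 (95% interval -1.89 to 0.89) to 0.54 for SHR (-1.55 to 2.64), intervals that leave large differences in either direction possible. Replicate 1 held more regions than replicate 2 in both cell types, and the member windows followed it, with 25 and 15 regions in hair cells and 33 and 12 in non-hair cells.

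Between INTACT and sucrose root tips, PLT1 was the 1 member called, with 539 and 707 bp in INTACT lists against 0 bp in both sucrose lists (limma adjusted p = 0.0283). Over all genes 5.12% were called higher in INTACT nuclei and 0.73% lower, 5.85% in all. The call was lost when sucrose replicate 1 was left out (limma adjusted p = 0.0792). The INTACT replicates shared no site in the PLT1 window. Replicate 1 held the site closer to NEK5 alone, and replicate 2 held other sites. SHR had 1227 and 756 bp in INTACT lists against 0 and 199 bp in sucrose lists, and its difference of 2.44 ± 0.88 (SE) gave a limma adjusted p of 0.199. PLT2 stood at 665 and 808 scaled bp in INTACT lists against 2147 and 888 in sucrose lists (-0.84 ± 0.47, limma adjusted p = 0.401).

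A wider list of 36 other root meristem regulators was read in the same way. Of 29 tested, 2 rose in root tips, 6 fell and 21 were not called, with a median of 0.20 beside -0.30 over all genes. These counts are close to the 9.96% called higher and 19.6% called lower over all genes tested, and the genes named below are those called and those not tested. RBR1, the plant retinoblastoma-related cell cycle repressor that binds SCR, rose with 612 to 1251 scaled bp in root tips against 562 to 639 in the epidermis (0.57 ± 0.17, limma adjusted p = 0.0473). AGL42, a MADS-box gene used as a quiescent centre marker, rose with 1216 to 2312 scaled bp in root tips against 754 to 1316 in the epidermis (0.72 ± 0.18, limma adjusted p = 0.0287). Both genes had a region in all 8 lists, and their root tip and epidermal ranges overlapped.

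The 6 that fell include the SHR and SCR target MGP, a BIRD zinc finger gene with a region in 1 of the 4 root tip lists (0 to 477 scaled bp) against 351 to 681 scaled bp in the epidermis (limma adjusted p = 0.0374). CLE40, a peptide gene that restrains distal root stem cells, also had a region in 1 root tip list (0 to 444 scaled bp) against 512 to 597 in the epidermis (limma adjusted p = 0.029). ARR1, a cytokinin response regulator that limits meristem size, stood at 567 to 1189 scaled bp in root tips against 1846 to 2729 in the epidermis (-1.43 ± 0.17, limma adjusted p = 0.00224). MP, an auxin response factor, PHV, a class III homeodomain-leucine zipper factor, and HAN, a GATA factor, had no region in any root tip list and were tested through their epidermal lists alone. Their epidermal lists ran from 124 to 427, from 320 to 512 and from 444 to 969 scaled bp, with limma adjusted p of 0.00898, 0.00204 and 0.00189. The genes that fell under the minimum were not tested. Of these, SMB, a root cap NAC factor, NTT, a zinc finger factor, ACR4 and WOX7 also had no region in any root tip list. Their epidermal lists ran from 106 to 155, 0 to 294, 0 to 266 and 0 to 163 scaled bp. RGF1 had no region in any list, and PLT5 and BRN2 had a region in 1 root tip list each.

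**Figure D3:**
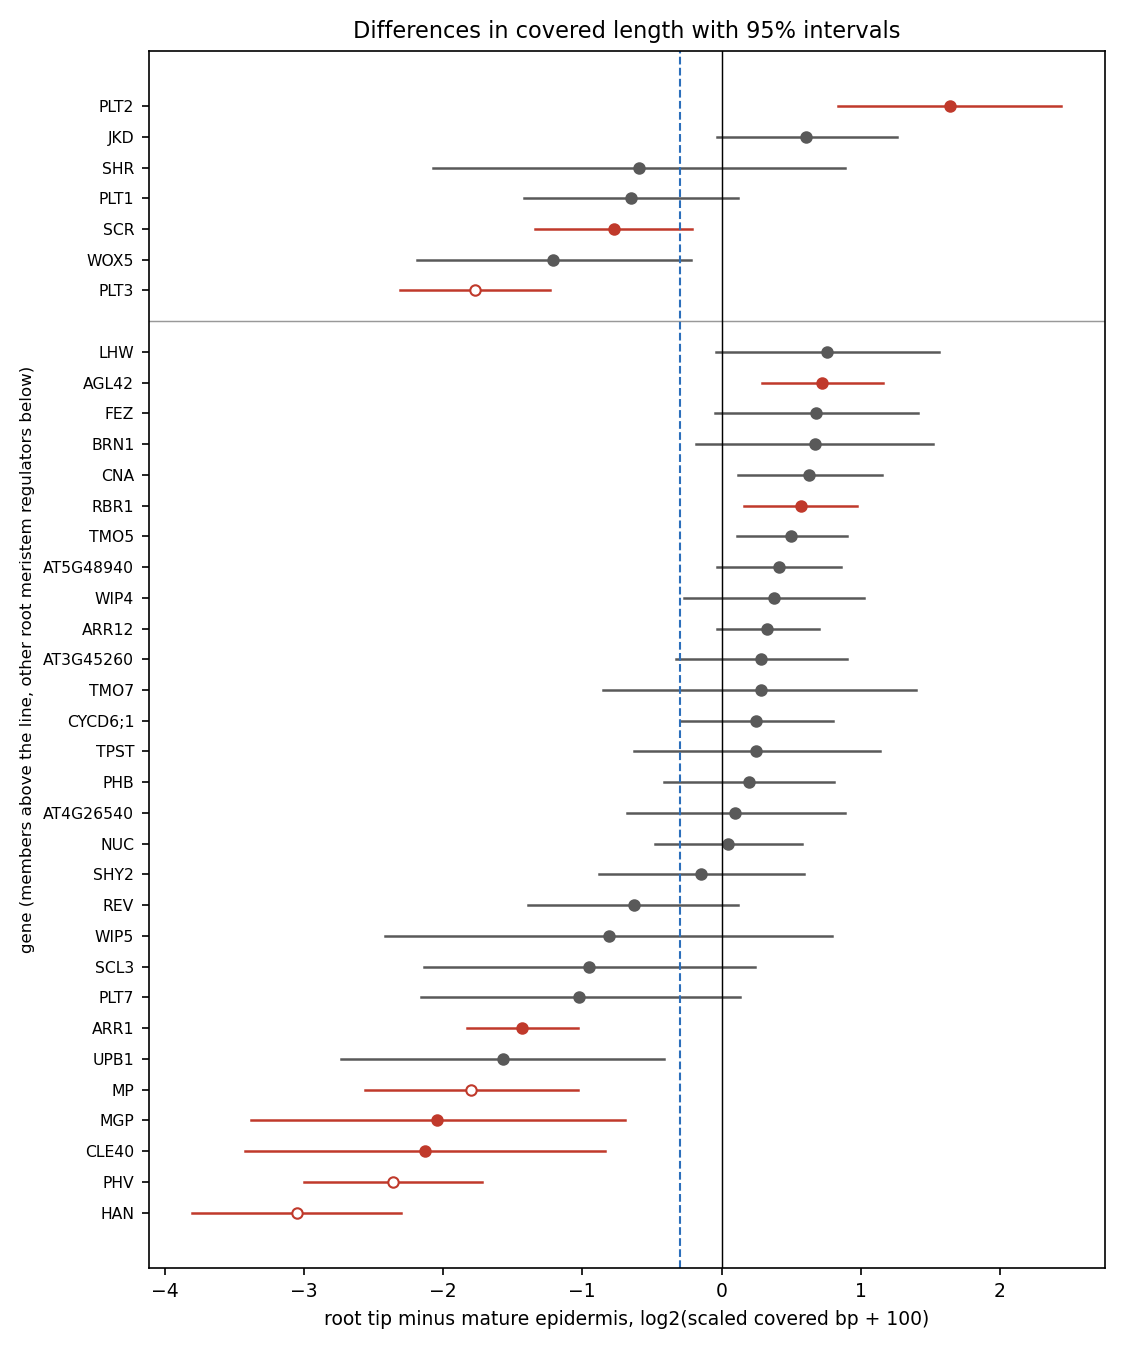
Difference in covered length of root tip minus mature epidermis on the log2(scaled covered bp + 100) scale (x axis) with 95% limma intervals, for the 7 tested members above the line and 29 other regulators below it (y axis). Red marks limma adjusted p under 0.05, open points a gene with no region in any root tip list, whose size depends on the added 100 bp, and the dashed line the median of all genes, -0.30. PLT2 lies at 1.64, to the right of every other gene drawn.

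Genes listed for other cell types were read beside these results. Over all genes tested 9.96% were called higher and 19.6% lower in root tips. Among 6 hair cell markers 2 rose in root tips (RHD6 and COBL9). The other 4 were not called, at 0.53 for RSL4, -0.09 for EXPA7, -0.39 for LRX1 and -1.57 for ADF8, whose promoter drives the tag in the hair cell plants. The 6 genes' summed scaled covered length was 4455 to 5354 bp in root tips against 3545 to 4084 bp in the epidermis. The 6 genes listed under non-hair cells are epidermal fate genes and not all markers of that cell type. Among them 2 fell, and both, GL2 and WER, had no region in any root tip list and were tested through their epidermal lists alone. The other 4 were not called, at -0.68 for EGL3, -0.28 for TTG1, 0.12 for CPC and 0.58 for MYB23. The sums for the 6 were 2308 to 4581 bp in root tips against 3599 to 5735 bp in the epidermis. The GL2 promoter is also part of the transgene of the non-hair plants. Of 7 genes of dividing cells 4 were tested and 0 called by limma, with sums of 1831 to 3238 bp in root tips against 2426 to 3058 bp in the epidermis. CYCB1;1, CYCB1;2 and CDKB2;1 had no region in any root tip list, were missing from at least 1 epidermal list each and fell under the minimum. KNOLLE and CDKB2;2 had a region in 2 root tip lists and AUR1 in 1, and AUR2 had one in all 4, with 1504 to 2632 scaled bp in root tips against 925 to 1736 in the epidermis (0.67 ± 0.22, limma adjusted p = 0.0589). Of 4 endodermis genes 0 were called, with sums of 2393 to 4239 bp in root tips against 2832 to 3750 bp in the epidermis. The part of cell makeup or list length in the differences of the 8 members was not tested.

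The genes whose covered length over the 8 lists was nearest to the mean of the 8 members were AT3G44630, LTP6 and AT1G50180, with Euclidean distances of 0.621, 0.952 and 1.08 on the log2 scale. The member mean itself was 9.04 and 8.46 in INTACT lists, 7.98 and 8.09 in sucrose lists, 8.75 and 8.64 in hair cell lists and 9.0 and 8.43 in non-hair cell lists, so it was lowest in the sucrose lists.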

How the data were processed

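The deposited lists hold coordinates alone (sequence name, start and end of each region), with no score, count or p-value. Bowtie2, HOMER and the build TAIR10 are named in the submitters' processing notes, and the rest of the authors' steps is not given in the sources used here. Gene spans came from a RefSeq table of TAIR10.1 without strand, so the planned windows of 2 kb upstream and 1 kb downstream were replaced by 2 kb on both sides, and the planned promoter windows, motifs, upstream-only window and shorter stranded window were not run. The lists lined up with the table: 22.5% of gene ends lay in a region, beside 9.64% of points 1000 bp outward (mean of 8 lists). Coordinates are printed counted from 1.

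Covered bp per window was scaled to the mean over all 27444 protein-coding windows, and log2(scaled bp + 100) was fitted with limma 3.58.1 (trend, R 4.3.3) over all 8 lists for 23001 genes with a mean of at least 100 bp. Benjamini-Hochberg adjustment ran over all genes at 0.05. In simulated data for root tip against epidermis on 23001 genes, 72 of 96 planted differences of 3 and 24 of 104 of 1.5 (log2) were called, with 6 calls among unplanted genes. The simulation drew independent normal noise around each gene's mean, with no floor and no differences other than those planted. Its rates therefore do not carry over to the real lists. Regions per window were tested by exact permutation. Sites are regions of the 8 lists joined where they share a base pair. The 8 members are all named, of 36 other regulators those called and those under the minimum, and the 3 genes nearest in pattern. Members and lists were chosen with earlier results of these data known. The genomic DNA control was not analysed here. Same-numbered replicates did not deviate together in general: the correlation of deviations ran from -0.261 to 0.472 over the 6 pairs of groups. Python 3.11.15, NumPy 2.4.6, pandas 2.3.3 and Matplotlib 3.10.9 were used.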

Additional observations from a re-analysis of the deposited data

Results flagged for a closer look

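PLT1 differed between the root tip preparations, each set against the same epidermal lists: 673 and 905 scaled bp in INTACT lists, above all epidermal lists, against 0 and 0 bp in sucrose lists, below all of them (limma adjusted p = 0.0283 for the difference between preparations). The INTACT replicates shared no site in the PLT1 window, and the only region of replicate 1 was closer to NEK5 than to PLT1. SHR did not pass the test between preparations (2.44 ± 0.88 SE, limma adjusted p = 0.199), and its lists overlapped the epidermal ones. Both of its INTACT lists lay above the epidermal mean on the log2 scale, the nearer by 0.32, and both sucrose lists below it. The INTACT lists held 23422 and 23812 regions and the sucrose lists 11819 and 15930, and the part of this in either result was not tested.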

How the results depend on the processing

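Of 387 alternative values, 282 kept direction and side of the threshold (a count stayed within 1.5 times), 21 lost the call, 8 gained it, 14 turned sign and 62 counts moved further. For root tip against epidermis, members called higher were 0 without scaling and 0 with INTACT tips alone, against 1. Members called lower, against 2, were 4 without scaling, 0 after quantile normalization and with either flank alone, and 1 with no minimum, INTACT tips alone, the widest regions, 1 kb on both sides, 1 kb at the low end, or sites nearest to the gene alone. The percent of all genes called higher was 0.118 without scaling, 0.931 with INTACT tips and 5.44 with the widest regions, and the percent lower was 66.4, 8.22 and 8.71 there and 11.4 after quantile normalization. Leaving out 1 list gave 0 to 1 member higher, 0 to 3 lower, 1.70% to 13.0% of genes higher and 7.48% to 27.5% lower. Sign turned for PLT1 at 0.22 and WOX5 at 0.08 (quantile), PLT1 at 0.95 and SHR at 0.64 (INTACT tips), JKD at -0.52 (no scaling), and SHR at 1.10 (widest regions), 0.24 (low-end flank), 0.01 (nearest sites) and 0.05 (without sucrose replicate 1; -1.28 to 0.05 over all lists left out). In hair against non-hair cells it turned when a list was left out, with ranges of -0.54 to 0.01 for PLT2, -0.30 to 0.58 for PLT1 and -0.24 to 1.30 for SHR. For region number it turned for SHR and JKD, at 0.5 each, with the widest regions. Members with no overlap above numbered 2 with the widest regions, 2 with INTACT tips, 0 unscaled and 1 to 2 with a list left out, and those below 0 with the widest regions, 1 with 1 kb at the low end or both ends, and 1 to 3 with a list left out. With the widest regions, 10 sites were left, 0 in all 8 lists and 0 in all 4 epidermal and no root tip lists. JKD was called higher with the high-end flank alone (0.64, limma adjusted p = 0.0288). For INTACT against sucrose, 0 to 2 members and 0.0% to 10.8% of genes were called higher, and 0.0% to 5.94% lower, with a list left out. The cause of these shifts was not tested. The numbers do not pair the samples in general, although same-numbered hair and non-hair lists had a correlation of deviations of 0.472. With the replicate number as a block, PLT2, PLT3 and SCR were called as before against the epidermis (7.68% of genes higher, 17.7% lower), and for INTACT against sucrose PLT1 was not (limma adjusted p = 0.0721), with 0 members and 0.0% of genes called in either direction. Every window alternative that ignores strand was added after seeing the data. With no read counts, a missing region may be a site that was not detectable at an unknown depth.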
